A study of Mus musculus with 4 samples.

Results

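The genes of the proteasome were compared between C2C12 cells with a knock-down of SFMBT1 and C2C12 cells carrying the vector control. C2C12 is a mouse myoblast line that can form multinucleated muscle fibres in culture. The genes were taken by symbol: those starting with Psma, Psmb, Psmc, Psmd, Psme, Psmf or Psmg that had a probe set assigned to exactly 1 gene by the array annotation. This gave 49 genes, of 18193 genes represented on the array. Each gene was read from 1 probe set, the one with the highest mean log2(signal + 16) over the 4 arrays, and 45 of the 49 passed a filter on dim probe sets, which kept the upper 60% by mean log2 signal, and were tested.

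The SFMBT1 knock-down group held 2 cultures stably carrying the lentiviral vector pLKO.1 with a hairpin RNA named shSFMBT1. The vector control group held 2 cultures with the same vector and a control hairpin, which one label calls scrambled and another shLuc. All 4 cultures were undifferentiated myoblasts by label, grown in medium with 20% serum and kept under puromycin at 2 µg per ml, and each gave 1 array. The series text calls the cultures independently grown; no label used here says if each had its own infection, so p-values may measure the spread between cultures only.

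The proteasome is the protease that degrades ubiquitin-tagged proteins. Its barrel, the 20S core, is built of outer alpha rings that form the gate and inner beta rings that hold the active sites. The 19S particle caps the barrel, binds and removes ubiquitin, and unfolds the substrate with a ring of ATPases. Cells can swap in inducible catalytic subunits after interferon, and can cap the core with other activators. In muscle the proteasome turns over myofibrillar proteins, and in myoblasts it degrades regulators of differentiation such as MyoD. SFMBT1, the target of the knock-down, carries MBT domains and acts on chromatin, and its protein level was not measured here.

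Promoter stretches are shown for 4 genes around which the results turn: Psma4, the 1 gene called; Psmb3, which had the largest positive difference; and Psmb5 and Psmb6, constitutive catalytic subunits that carry a match to the antioxidant response element. That element is the site through which the factors encoded by Nfe2l1 and Nfe2l2 are known to act on proteasome genes. Each stretch is the RefSeq sequence just before the annotated start, written 5′ to 3′ on the strand of the gene in build GRCm38.p6. Capitals mark matches, on either strand, to 4 motifs: the antioxidant response element (TGACNNNGC), the CCAAT box, the YY1 motif (AANATGGC) and the E-box (CACGTG). The Psma4 stretch lies at chr9:54950709-54950858 (plus strand), Psmb3 at chr11:97703284-97703433 (plus), Psmb5 at chr14:54617996-54618095 (minus) and Psmb6 at chr11:70525257-70525356 (plus).
Psma4: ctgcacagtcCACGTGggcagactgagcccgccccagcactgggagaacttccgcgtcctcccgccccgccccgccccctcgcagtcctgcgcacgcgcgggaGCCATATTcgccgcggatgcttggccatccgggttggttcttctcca
Psmb3: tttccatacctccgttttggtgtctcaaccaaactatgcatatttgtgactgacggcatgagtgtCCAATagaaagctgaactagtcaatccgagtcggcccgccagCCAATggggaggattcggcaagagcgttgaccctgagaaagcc
Psmb5: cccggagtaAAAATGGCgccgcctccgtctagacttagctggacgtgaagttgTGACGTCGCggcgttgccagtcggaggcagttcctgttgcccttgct
Psmb6: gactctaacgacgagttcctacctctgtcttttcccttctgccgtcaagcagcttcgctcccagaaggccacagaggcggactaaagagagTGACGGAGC

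The Psma4 stretch holds an E-box that begins 140 bases before the start and a YY1 motif, on the opposite strand, that begins 47 bases before it. Psmb3 has a pair of CCAAT boxes. Psmb5 has a YY1 motif before its antioxidant response element, which begins 47 bases before the start, and in Psmb6 that element ends next to the start. Windows of 300 bases that span the start were found for 41 of the 49 genes, 44 windows in all. The antioxidant response element was in 13.6% of these windows and in 12.4% of all 32851 windows in the table. The CCAAT box was in 36.4% and 37.4%, the YY1 motif in 13.6% and 6.05%, and the E-box in 11.4% and 7.15%. No motif overlapped another in the printed stretches. These are matches of letters and do not show binding.

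Sfmbt1 itself had a lower signal on both knock-down arrays in all 5 of its probe sets. With 1 probe set per gene, 21.5% of all genes tested were lower on both knock-down arrays. The share of genes with every probe set lower was not counted. In 4 of the 5 Sfmbt1 probe sets the knock-down mean was 17.4% to 69.2% of the vector control mean. The lowest of these was in the background range on 1 array. The other probe set lay in the background range, the range of most bacterial control probe sets, on all 4 arrays. With every probe set tested by limma, the lowest of the 4 passed (adjusted p = 0.0219). The others did not (adjusted p = 0.0594, 0.333 and 0.339). Median signal over all probe sets was 92.8 and 101.1 on the knock-down arrays and 97.8 and 102.7 on the vector control arrays. All 8 myoblast markers looked for, such as Myod1, Des and Cdh15, were above background on all 4 arrays, and 0 of them were called (0 higher and 1 lower, Myod1, at an unadjusted p under 0.05). Of 13 tested markers of differentiated muscle 10 rose and 0 fell (median log2 difference 2.30). Their summed signal, over 14 on the array, was 10418.7 and 11031 in the knock-down and 2491.4 and 2297.7 in the vector control. In such bulk RNA, a change in the number of differentiating cells and a change per cell cannot be told apart. The part of this shift in the proteasome results was not tested. Markers of other cell types were partly above background. In the background range on all 4 arrays were 1 of 6 leukocyte markers (Ptprc), 2 of 6 endothelial (Pecam1 and Tie1), 2 of 4 adipocyte (Adipoq and Lep), 1 of 6 epithelial (Cdh1) and 0 of 6 fibroblast markers, while others such as Cd14, Csf1r, Kdr, Retn, Epcam and Krt8 were above it on all 4. The summed signal was 1107.7 and 1301.9 in the knock-down and 1347.1 and 1371.7 in the vector control for leukocyte markers, and 1120.2 and 1519.7 in the knock-down and 1201.4 and 775.6 in the vector control for epithelial markers. For fibroblast markers it was 1764.5 and 1744.7 in the knock-down and 692.8 and 902.4 in the vector control. Of that sum, Col1a1 alone gave 1221.6 and 1285.5 in the knock-down and 277.3 and 348.6 in the vector control. Col1a1 was the 1 gene of these 5 lists called. The other tested fibroblast markers, Pdgfra, Thy1 and Dcn, had overlapping groups (log2 0.047, 0.11 and 0.20). The part of these 5 lists in the proteasome results was not tested.

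Differences of the tested proteasome genes between knock-down and vector control ran from -0.51 to 0.46 on the log2 scale. Psma4, an alpha ring gene, fell to 70.7% of the vector control mean, and most other genes of the core and the 19S particle had positive differences that did not pass. Of the 45 genes tested, 0 were called higher and 1 was called lower by limma at a Benjamini-Hochberg adjusted p under 0.05. Over all 12866 genes tested, 1.44% were called higher, 1.61% lower and 3.05% in either direction, so the proteasome count is near the background. At an unadjusted p under 0.05, 10 of the 45 were higher and 3 lower, against 7.89% and 7.14% of all genes tested. A positive difference was found in 37 of the 45, against 52.2% of all genes tested. With all probe sets of a gene averaged, dim ones included, the count was 27 of 45. It was 32 to 40 of 45 with 1 array left out. The median log2 difference (knock-down minus vector control, on the log2(signal + 16) scale, which understates changes of dim genes) was 0.16 over the 45 and 0.015 over all genes tested. The 2 groups of arrays did not overlap in 28 of the 45, with the knock-down higher in 24 and lower in 4, against 23.0% and 21.5% of all genes tested. As a limit, knock-down replicate 2 gave the highest signal of the 4 arrays in 31 of the 45 (68.9%), against 39.4% of all genes tested. Among the 1490 tested genes with a mean log2 signal of 11 or more, a limit chosen after the values were seen, that share was 57.4%. In these genes the difference was positive in 61.5%, and the median difference was 0.049. Their groups of arrays did not overlap in 460 with the knock-down higher and in 287 with it lower.

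**Figure D1:**
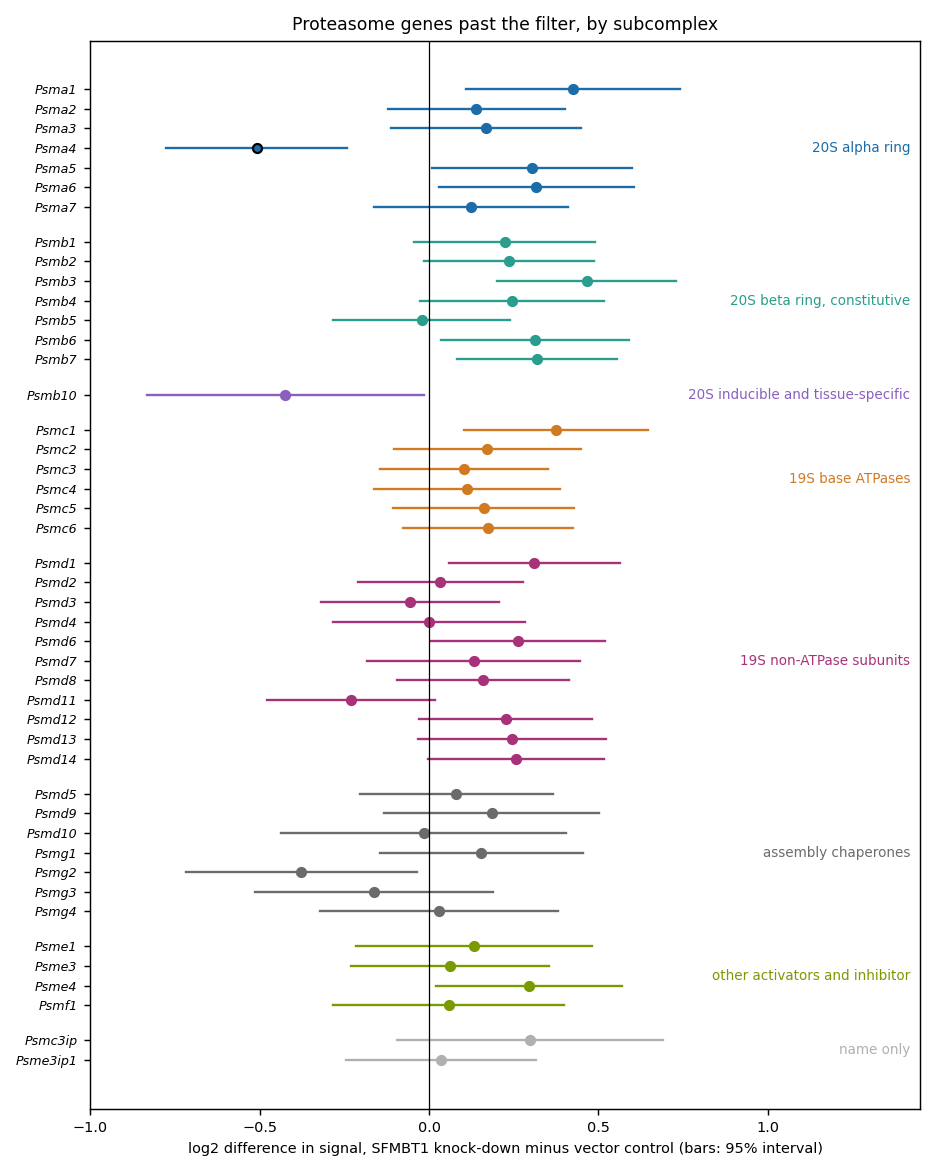
Log2 difference in signal (x axis, SFMBT1 knock-down minus vector control) for the 45 tested proteasome genes (y axis), grouped by subcomplex. Points are the fitted differences and bars their 95% intervals; the black-rimmed point, Psma4 at -0.51, is the 1 gene called, and 37 of the 45 points lie above 0.

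The alpha ring held the 1 called gene. Psma4 encodes alpha3, whose tail is known from yeast to help close the gate of the core. Its signal was 5002.3 and 6272.4 on the knock-down arrays, against 7940.7 and 8015.6 on the vector control arrays. Both knock-down arrays lay below both control arrays. The means were 5637 ± 898 and 7978 ± 53.0 (SD, n = 2 each), a log2 difference of -0.51 (SE 0.13, 95% interval -0.78 to -0.24, limma adjusted p = 0.0387). Psma4 has 1 probe set on the array, so no second one could be set beside it. The difference was negative under all 15 alternative settings. With 1 probe set, other filters, other choices of probe sets, no variance trend and a replicate block could not move it from -0.51. Other pseudocounts and scalings gave -0.57 to -0.47, and leaving out 1 array gave -0.67 to -0.35. The call was lost under 7 of the 15, with limma adjusted p between 0.0056 and 0.394 when all 4 arrays were used. It was lost without vector control replicate 1 (0.0979), vector control replicate 2 (0.107) or knock-down replicate 1 (0.172), and held without knock-down replicate 2 (4.38e-04). With an array left out its group is 1 array, assumed to vary like the others, and the spread comes from the remaining pair and from the other genes through the fit's prior.

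The other alpha genes all had positive differences, from 0.12 to 0.42 with a median of 0.24, and none was called. Psma4 thus stood 0.74 log2 units below the median of its ring partners; it is described this way because it was the gene called, so the gap is no separate result. Psma1 had a signal of 2157.4 and 2903.6 in the knock-down and 1760.6 and 1965.6 in the vector control (log2 0.42, SE 0.15, adjusted p = 0.165). Its groups did not overlap. Psma6 stood at 6954.1 and 9157.1 in the knock-down and 6003.4 and 6834.7 in the vector control (log2 0.32, limma adjusted p = 0.279). However, its 3 probe sets past the filter ran from -0.45 to 0.32, and the next brightest gave 0.092 with overlapping groups. Psma5 had 4244 and 5719.3 in the knock-down and 3878.1 and 4100.6 in the vector control (log2 0.30), and a second probe set gave 0.42. In these 3 genes the higher knock-down value was that of replicate 2, and without knock-down replicate 1 each of them passed, with replicate 2 then the only knock-down array and no spread of its own (log2 0.64, 0.51 and 0.52 for Psma1, Psma6 and Psma5; adjusted p = 0.0040, 0.0162 and 0.0182). Psma7 had 4731 and 6293.7 in the knock-down and 5007.1 and 5007.2 in the vector control (log2 0.12), and another probe set gave -0.17. The groups overlapped in Psma7, as they did in Psma2 (log2 0.14) and Psma3 (log2 0.17).

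**Figure D2:**
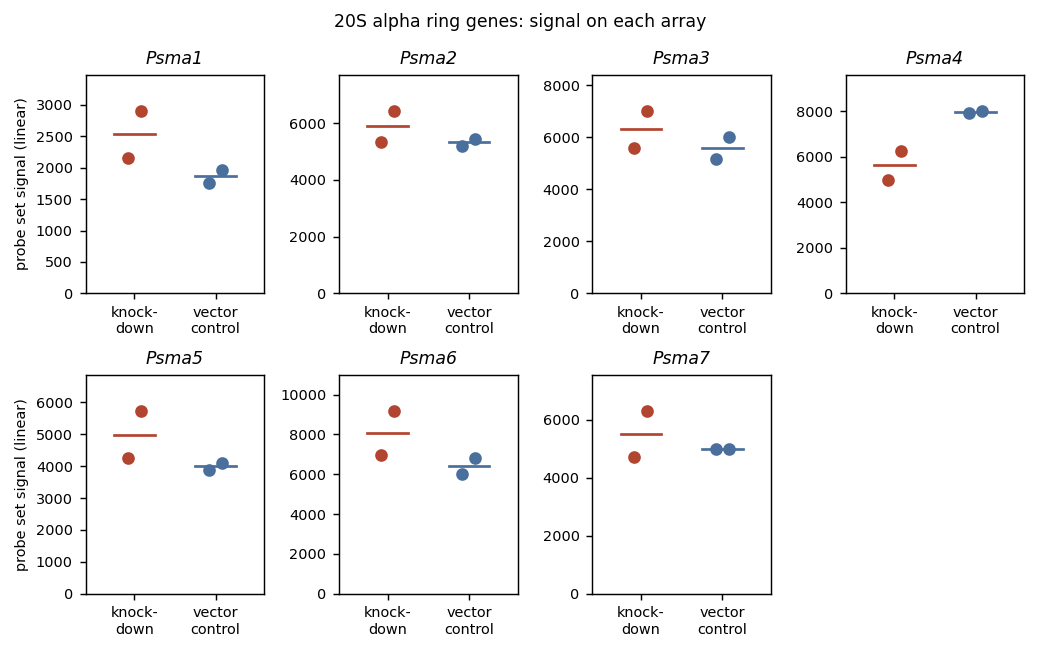
Linear probe set signal (y axis) of the 7 alpha ring genes on each array, with the SFMBT1 knock-down left of the vector control. Points are arrays and lines are group means of 2; Psma4 averaged 5637 in the knock-down and 7978 in the vector control, while the other 6 had higher means in the knock-down.

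Across the constitutive beta ring 6 of 7 genes had a positive difference and non-overlapping groups, with a median of 0.24, and 0 were called. Non-overlapping groups with the knock-down higher were found in 23.0% of all genes tested. They were found in 460 of the 1490 genes with a mean log2 signal of 11 or more, a range that holds all 7 beta ring genes. At an unadjusted p under 0.05, 3 of the 7 were higher and 0 lower. Psmb3, a non-catalytic ring subunit, had the largest positive difference of the proteasome genes tested. Its signal was 4222.4 and 4849.3 in the knock-down, against 3119.4 and 3436.8 in the vector control. Both knock-down arrays were above both control arrays (log2 0.46, SE 0.12, 95% interval 0.20 to 0.73, adjusted p = 0.0564). That value lies just outside the threshold and passed under 5 of 15 alternatives, with adjusted p between 0.0089 and 0.596. A second probe set of Psmb3, at 2942.3 and 3415.3 in the knock-down and 2661.6 and 2989.7 in the vector control, gave 0.17 and overlapping groups. Psmb1, Psmb2 and Psmb4, the other ring subunits without active sites, differed by 0.22, 0.24 and 0.24, with non-overlapping groups.

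Among the catalytic subunits, Psmb6 and Psmb7 had positive differences and Psmb5 one near 0, and none passed. Psmb7, the trypsin-like subunit, had 11660.9 and 12715.5 in the knock-down and 9564.1 and 9978.8 in the vector control (log2 0.32, SE 0.11, adjusted p = 0.168). Psmb6, the caspase-like subunit, had 3583 and 4354.8 in the knock-down and 3007 and 3358.9 in the vector control (log2 0.31, SE 0.13, adjusted p = 0.265). In both genes the knock-down arrays lay above the control arrays. Psmb5, the chymotrypsin-like subunit and the main target of bortezomib, had 4743.4 and 5440.7 in the knock-down and 4841.6 and 5490.4 in the vector control. Its groups overlapped, and the difference was -0.02 with a 95% interval of -0.28 to 0.24.

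Of the inducible and tissue-specific core subunits 1 of 5 passed the filter. Psmb10, which replaces Psmb7 in the immunoproteasome, had 254.8 and 262.4 in the knock-down and 344 and 361.1 in the vector control. Both knock-down values were the lower ones (log2 -0.42, SE 0.19, 95% interval -0.83 to -0.02, adjusted p = 0.312), the opposite sign to its constitutive counterpart, and the test did not pass. Psmb8, which replaces Psmb5, was in the background range on all 4 arrays, with 7.9 and 13.3 in the knock-down and 27.5 and 17.3 in the vector control. Psmb9, which replaces Psmb6, had 11.7 and 41.2 in the knock-down and 92.8 and 38.3 in the vector control, and lay above background on the first control array only. No fold is given for either. The thymic subunit gene Psmb11 had 74.2 and 48.7 in the knock-down and 37.8 and 67.2 in the vector control, and the testis subunit gene Psma8 was in the background range on all 4 arrays. Of 14 tested interferon response and antigen presentation genes, 0 were called, 1 was higher and 1 lower at an unadjusted p under 0.05, and the median was 0.0084.

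**Figure D3:**
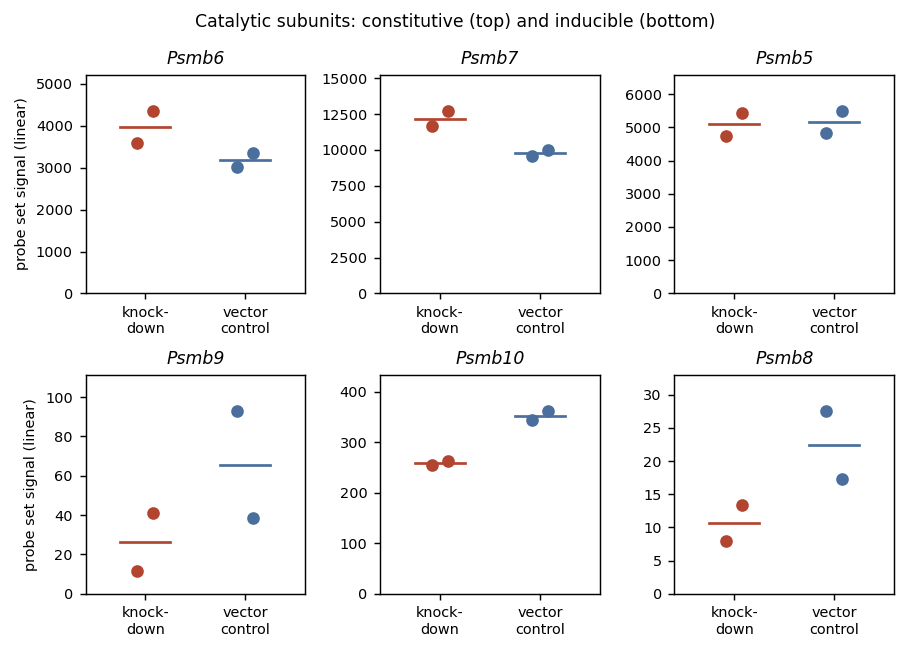
Linear probe set signal (y axis, each panel with its own scale from 0) of the constitutive catalytic subunit genes (top) and the inducible genes that replace them (below), with the SFMBT1 knock-down left of the vector control. Points are arrays and lines are group means of 2; Psmb8 lies in the background range throughout, and Psmb10 averaged 259 in the knock-down and 353 in the vector control.

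All 6 ATPase genes of the 19S base, which form the ring that unfolds substrates, had a positive difference, and 0 were called; 1 was higher and 0 lower at an unadjusted p under 0.05. The median was 0.17. Psmc1 had 2179.7 and 2372.4 in the knock-down and 1712.4 and 1787.8 in the vector control (log2 0.38, SE 0.13, 95% interval 0.10 to 0.65, adjusted p = 0.152). Its groups did not overlap, and neither did those of Psmc3, Psmc5 and Psmc6. At the low end of the range, Psmc3 had 5077.8 and 5361 in the knock-down and 4655.2 and 5059.6 in the vector control (log2 0.10, adjusted p = 0.755). The remaining values were 0.17 for Psmc2, 0.11 for Psmc4, 0.16 for Psmc5 and 0.17 for Psmc6. The sign of some depended on the probe set. Psmc4, at 2313.1 and 2633.1 in the knock-down and 2183.5 and 2384.1 in the vector control, had -0.26 in another probe set. Psmc6, at 4315.6 and 4653.3 in the knock-down and 3826.9 and 4119.7 in the vector control, ran from -0.12 to 0.17 over 3 probe sets. With all probe sets of a gene averaged, dim ones included, the median of the 6 was 0.040 in place of 0.17.

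Among the 11 non-ATPase subunits of the 19S particle taken by symbol, 9 had a positive difference, the median was 0.16 and 0 were called, with 2 higher and 0 lower at an unadjusted p under 0.05. Psmd1, the large scaffold of the base, had the largest difference of these, with 6664.6 and 7792.1 in the knock-down and 5756.7 and 5862.6 in the vector control (log2 0.31, SE 0.12, adjusted p = 0.213). Its groups did not overlap. Psmd2, the other large scaffold, differed by 0.034 (95% interval -0.21 to 0.28) with overlapping groups.

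The lid, which removes ubiquitin chains, showed both signs. Psmd14, the deubiquitinating enzyme, had 5653.7 and 6451.8 in the knock-down and 4755.9 and 5372.1 in the vector control (log2 0.26, SE 0.12, adjusted p = 0.340). Its partner Psmd7 differed by 0.13, with overlapping groups. Lid scaffold genes ranged from Psmd6 at 0.26 and Psmd12 at 0.23 through Psmd8 at 0.16 to Psmd3 at -0.06, and the groups did not overlap in the first 3 of these. Psmd11, the lid subunit that bridges to the core, had 5185.2 and 5661.5 in the knock-down, against 6076.7 and 6657.3 in the vector control (log2 -0.23, SE 0.12, adjusted p = 0.378). Both knock-down values were below both control values, and its 6 probe sets past the filter were all negative, from -0.24 to -0.0089. Psmd11 passed under 1 alternative, quantile normalization (log2 -0.29, adjusted p = 0.0395), over a range of 0.0395 to 0.820.

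Psmd4, a ubiquitin receptor, had 2781.3 and 3476.6 in the knock-down and 2972.7 and 3251.5 in the vector control. The difference was 3.2e-04 with a 95% interval of -0.28 to 0.28, and its other probe sets were negative, down to -0.21. Psmd13 had 2125.9 and 2461.5 in the knock-down and 1902.3 and 1952.7 in the vector control (log2 0.25, adjusted p = 0.405), while its 4 probe sets ran from -0.37 to 0.25. Over the proteasome genes with more than 1 probe set past the filter, 14 of 21 had probe sets of 1 sign and 7 had both.

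The assembly chaperones had a median of 0.029, with 4 positive and 3 negative differences, and 0 were called; 0 were higher and 1 lower at an unadjusted p under 0.05. Psmg2, which pairs with Psmg1 to build the alpha ring, had 546.3 and 676 in the knock-down and 771.6 and 817.3 in the vector control. Both knock-down values were lower (log2 -0.38, SE 0.16, 95% interval -0.72 to -0.04, adjusted p = 0.275), and its 3 probe sets were all negative. Psmg1 itself had 1306.6 and 1583.7 in the knock-down and 1282.6 and 1298.6 in the vector control (log2 0.15, adjusted p = 0.681). The pair therefore differed in sign, though neither passed. Psmg3 and Psmg4, the other core chaperones, differed by -0.16 and 0.029 with overlapping groups. Of the chaperones of the 19S base, Psmd9 had 798.2 and 781.2 in the knock-down and 685.3 and 700.7 in the vector control (log2 0.18, adjusted p = 0.629), without overlap. Psmd5 differed by 0.080 and Psmd10, also known as gankyrin, by -0.016.

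**Figure D4:**
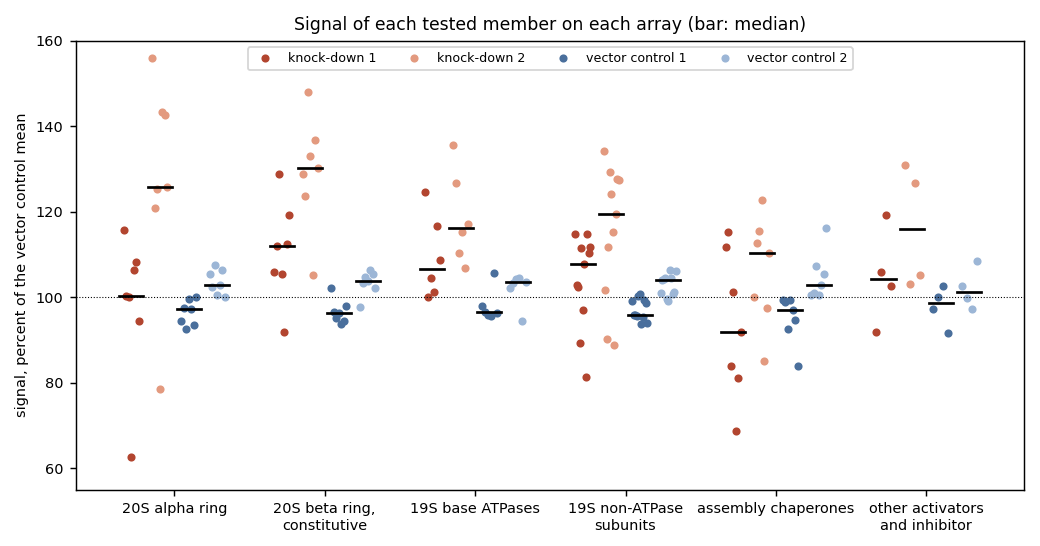
Signal of each tested gene on each array as a percentage of its vector control mean (y axis), by subcomplex (x axis), with the knock-down arrays left of the vector control arrays; bars are medians. The median of knock-down replicate 2 lies above that of replicate 1 in each of the 6 subcomplexes shown, and Psma4 is the lowest point of the alpha ring, at 62.7% and 78.6% in the knock-down.

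The 2 knock-down arrays are given apart here as a description; differences between subcomplexes were not tested. Relative to each gene's mean log2 signal in the vector control, the alpha ring had a median of 0.0062 on knock-down replicate 1 and 0.33 on replicate 2. The beta ring had 0.16 and 0.38, the ATPases 0.092 and 0.22, and the non-ATPase subunits 0.11 and 0.25. The chaperones had -0.10 and 0.16. Over all genes tested the same medians were -0.040 and 0.076. Each of these subcomplex medians rests on 1 array and on 6 to 11 genes. Knock-down replicate 1 also had the lowest share of probe sets above background, 56.2%. The share was 67.6% in replicate 2 and 65.0% and 64.3% in the vector control. It rests on a limit set for each array, which was highest in knock-down replicate 1 (69.3). That limit was 42.9 in replicate 2 and 49.1 and 53.2 in the vector control. The part of this share and limit in these medians was not tested.

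The remaining activators and the inhibitor had small positive differences, a median of 0.097, and 0 of 4 were called; 1 was higher and 0 lower at an unadjusted p under 0.05. Psme4, the nuclear activator PA200, had 1879.7 and 1997.9 in the knock-down and 1620.2 and 1534.1 in the vector control (log2 0.30, SE 0.13, adjusted p = 0.290). Its groups did not overlap, and 3 probe sets past the filter were all positive, from 0.072 to 0.30. Psme1, a subunit of the interferon-inducible activator PA28, had 988.8 and 1409.7 in the knock-down and 1047.6 and 1104.5 in the vector control (log2 0.13, adjusted p = 0.783), with overlap. The probe set for its partner Psme2 is assigned to Psme2b as well and was therefore left out; it had 1507 and 1787.1 in the knock-down and 1189.1 and 1718.7 in the vector control. Psme3, the nuclear form of PA28, had 1156.9 and 1125.8 in the knock-down and 1093 and 1091.8 in the vector control (log2 0.062, adjusted p = 0.895), and another probe set gave -0.27. Psmf1, the PI31 regulator, had 633.2 and 648.4 in the knock-down and 565.2 and 668.7 in the vector control (log2 0.058, adjusted p = 0.918).

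A pair of genes met the symbol rule but encode no subunit, assembly chaperone, activator or inhibitor of the proteasome. Psmc3ip, a meiotic recombination factor, differed by 0.30 (adjusted p = 0.491), and Psme3ip1, a partner of PA28 gamma, by 0.035 (adjusted p = 0.939). Without them 35 of 43 differences were positive and the median was again 0.16.

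Among genes that work with the proteasome, none outside the marker lists was called. Of 16 tested genes for shuttle and accessory proteins 0 were called, with 2 higher and 2 lower at an unadjusted p under 0.05 and a median of 0.061. For Zfand5, a zinc finger activator of the proteasome that is named here after its value was seen, the signal was 2665.8 and 3200.4 in the knock-down and 4105.7 and 3863 in the vector control (log2 -0.45, adjusted p = 0.0788). Of 10 tested genes for assembly and transcriptional control 0 were called, 0 were higher or lower at an unadjusted p under 0.05, and the median was -0.017. That list holds Nfe2l1, which induces proteasome genes when the enzyme is inhibited. Nfe2l1 had 1961.7 and 1902 in the knock-down and 2254.8 and 2382.1 in the vector control (log2 -0.26, SE 0.13, adjusted p = 0.346), so both knock-down values were lower. Of 16 tested genes of p97, the ATPase that extracts ubiquitinated proteins, and its cofactors 0 were called, 1 was higher and 1 lower at an unadjusted p under 0.05, and the median was 0.046. Of 4 tested ubiquitin and E1 genes, out of 10 written, 0 were called and 0 had an unadjusted p under 0.05, with a median of 0.096.

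The genes that lie next to Psma4 in the RefSeq order did not pass either. Of the 3 protein-coding neighbours on each side 5 were tested and 0 called, and 1, Ireb2, was higher at an unadjusted p under 0.05. AY074887, Chrna3 and Chrnb4 were dim, with signals of 65.5 to 140.4, 55.5 to 68 and 57.2 to 105.8. Their SEs were 0.39, 0.49 and 0.43, against a difference of -0.51 for Psma4, so their tests cannot show that they were unchanged. Ireb2 and Hykk, on the same side of Psma4, had opposite signs. Ireb2 differed by 0.36 (SE 0.16, adjusted p = 0.304) and Hykk by -0.45 (SE 0.24, adjusted p = 0.398).

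The median difference of the tested proteasome genes was positive under all 15 alternative settings and above the median of all genes tested in each. It ran from 0.077 without knock-down replicate 2 to 0.27 without knock-down replicate 1, and over all genes tested those settings gave -0.040 and 0.076. Some settings could not move it. The upper 40%, no variance trend, the replicate block and testing every probe set kept the same 45 genes and differences, with a median of 0.16. Median centring shifts all genes alike, so the distance to the median of all genes tested stayed at 0.14. Counts of calls moved with the scaling. Centring each array on its median gave 4 genes higher and 1 lower, and quantile normalization 3 higher and 2 lower. Psmb3, Psmb7 and Psmc1 were higher and Psma4 lower under both. Over all genes tested, the split of calls was 339 higher and 218 lower with median centring, against 185 and 207 as deposited.

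**Figure D5:**
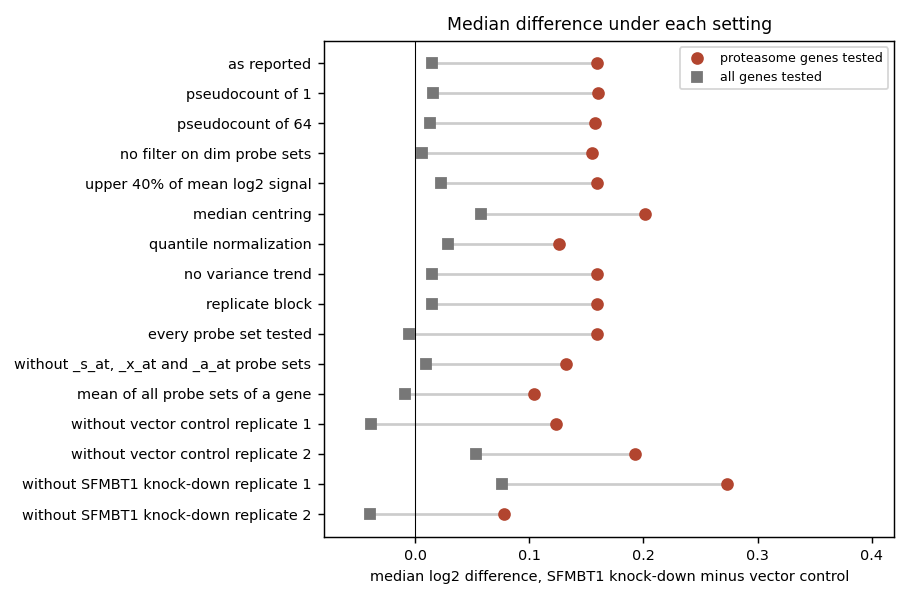
Median log2 difference (x axis, SFMBT1 knock-down minus vector control) of the tested proteasome genes (circles) and of all genes tested (squares) under the reported setting and 15 alternatives (y axis). The circles run from 0.077 to 0.27 and lie right of the square in each row. The circle could not move with the upper 40%, no variance trend, the replicate block or every probe set tested.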

How the data were processed

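Each deposited value is the intensity of 1 probe set on a linear scale. MAS5 and GCOS are named for it in the submitters' processing notes, and the scaling between arrays is not stated in the sources used. Labelled cRNA came from 100 ng of total RNA, per the labels' protocols. Of 45101 probe sets, 34945 were assigned to 1 gene; their symbols were looked up by gene ID in RefSeq (GRCm38.p6), where 34741 matched and 0 symbols changed.

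Signals were transformed as log2(signal + 16). Each gene was represented by its highest-mean probe set, and the upper 60% of probe sets by mean log2 signal entered the tests (signal of about 57.3 or more). Differences were fitted over all 12866 genes with limma 3.58.1 in R 4.3.3 (lmFit, eBayes with a variance trend), two-sided, with Benjamini-Hochberg adjustment. There were 2 residual degrees of freedom and a prior of 13.8; the number of arrays limits the precision. A two-sided exact permutation test of 2 against 2 cannot go below p = 0.333. A signal counted as background up to the 95th percentile of the array's 27 bacterial controls. The fit was tested on simulated data with independent values, variances drawn from its own prior and no shift of a whole array. That test cannot show how the fit behaves with such shifts.

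The genes, lists and motifs were chosen with earlier results of these data known. Every gene that met the symbol rule was accounted for, and subunits or chaperones with other symbols were not counted among the 49. Array values are given for called genes, the smallest p and both extremes of each subcomplex, the catalytic pairs, the PA28 genes and genes whose probe sets differ in sign. Replicate numbers were not taken to pair the cultures. The alternatives were other pseudocounts, filters, scalings and ways to choose probe sets, no variance trend, a replicate block, and leaving out each array.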

Additional observations from a re-analysis of the deposited data

How the results depend on the processing

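Over all genes tested, calls higher and lower were 185 and 207 as reported. They were 23 and 32 without the filter, 284 and 321 with the upper 40%, 0 and 0 without the variance trend (1501 genes had an unadjusted p under 0.05), and 46 and 62 with the probe sets of a gene averaged. Median centring gave 339 higher and testing every probe set 328 lower. Leaving out 1 array gave 143 to 407 higher and 128 to 450 lower. Proteasome genes called higher, 0 as reported, were 1 with the upper 40%, 4 with median centring, 3 with quantile normalization, and 0 to 4 with 1 array left out. Those called lower, 1 as reported, were 2 with quantile normalization, 0 without the filter, without the trend, with every probe set and with averaged probe sets, and 0 to 1 with 1 array left out. With the replicate number as a block 4 proteasome genes were higher (Psma1, Psmb3, Psmb7 and Psmc1) and 1 lower, and over all genes tested 276 and 270. The deviations of replicate 1 from its group mean in the knock-down and in the vector control correlated at r = 0.010 across the 12866 genes. The genes are not independent, and a correlation takes out a shift common to all genes, so it cannot decide if the numbers mark pairs. The main fit had no block because the replicate numbers are not said to mark a shared day.

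Averaged probe sets, dim ones included, moved the medians of the ATPases to 0.040 and of the activators and inhibitor to 0.038. With 1 array left out the medians ran from 0.16 to 0.38 (beta ring), 0.11 to 0.25 (non-ATPase subunits), 0.062 to 0.21 (activators and inhibitor) and -0.12 to 0.16 (chaperones). The sign of the difference held in 28 of 45 genes under every alternative that tested it and turned in 17 under at least 1. Other filters, no variance trend, a replicate block and testing every probe set could not turn a sign, as they left each difference unchanged. Median centring gave 0.021 for Psmb5 and 0.026 for Psmd10. Quantile normalization gave -0.029 for Psmd2, -0.039 for Psmd4 and 0.017 for Psmd10. Without probe sets marked _s, _x or _a, which can match several transcripts, Psma7 was -0.17 and Psmc6 -0.058. Averaged probe sets gave -0.024 for Psma7, -4.4e-04 for Psmb1, -0.26 for Psmc1, -0.072 for Psmc4, -6.3e-04 for Psmc6, -0.10 for Psmd4, -0.11 for Psmd7, -0.33 for Psmg4, -0.17 for Psme3 and -0.042 for Psme4. Averaging takes in probe sets in the background range. The second probe set of Psmc1 was there on 3 arrays (log2 -0.89) and that of Psmg4 on 4 (log2 -0.69). All probe sets of Psma7, Psmc6 and Psmd4 were above background on every array. With 1 array left out the ranges of genes that turned were -0.082 to 0.33 for Psma7, -0.12 to 0.077 for Psmb5, -0.026 to 0.094 for Psmd2, -0.15 to 0.037 for Psmd3, -0.16 to 0.16 for Psmd4, -0.044 to 0.31 for Psmd7, -0.24 to 0.20 for Psmd10, -0.20 to 0.26 for Psmg4, -0.12 to 0.39 for Psme1, -0.060 to 0.18 for Psmf1 and -0.032 to 0.10 for Psme3ip1. The causes were not tested.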
